A study of Homo sapiens with 23 samples.

Results

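The 50 genes described here drive or carry out DNA replication and cell division. They were chosen by name and function from the 19775 genes that had a probe set of their own on the arrays. No measured value served as a rule for the choice, but earlier results of these data were known when it was made. By textbook role 29 of them act at the entry into and passage through DNA synthesis (called G1/S genes below) and 21 act in late cycle and mitosis (G2/M genes). All 50 were measured, and 49 gave at least 100 signal units on every array; the exception was E2F1, which had the lowest average. Their RNA was followed in MCF10A-ER-Src cells, a non-transformed human mammary epithelial line; every group carried the same fusion of Src kinase to an estrogen receptor fragment that binds ligand. Tamoxifen (TAM) switches this kinase on, and ethanol (EtOH) is the solvent. The cells received 25 nM of an siRNA pool against STAT3 (siSTAT3) or of a non-targeting pool (siNEG). After a period of growth with the siRNA they were given 1 µM TAM or EtOH for 24 or 4 h. These hours count from TAM or EtOH, not from the siRNA. The 8 groups were siSTAT3 with TAM at 24 h, siSTAT3 with EtOH at 24 h, siNEG with TAM at 24 h, siNEG with EtOH at 24 h, and the same 4 at 4 h. Every group had 3 arrays apart from siSTAT3 with TAM at 24 h, for which replicates 2 and 3 were analysed here, so 23 arrays entered the fit. The model is a single engineered line with Src activated by a drug. The replicates are called biological in the methods, yet the labels do not state separate cultures, so the p-values measure the spread between these samples, which may be technical.

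In a dividing cell, D-type cyclins with their kinases and then cyclin E with CDK2 inactivate the retinoblastoma-type pocket proteins, which frees E2F transcription factors to switch on genes for licensing origins, unwinding DNA, making nucleotides and copying the genome. Later in the cycle MYBL2 and FOXM1 drive a second wave of genes for the mitotic kinases, the spindle motors and the kinetochore. E2F1 and E2F2 are mainly activators, whereas E2F7 and E2F8 are repressors that limit the first wave. The RNA of these genes is often read as a sign of how many cells of a culture are cycling. Because RNA was taken from whole cultures, a change in the share of cells in a phase and a change in RNA per cell cannot be told apart.

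The promoters of the G1/S and G2/M genes were compared by the letters they hold. The windows from RefSeq (GRCh38.p14) run from 250 bases before to 50 bases after an annotated start. Of the 50 genes 40 had at least 1 window. They were searched on both strands for 3 motifs. The E2F letters were TTTGGCGC, TTTCCCGC, TTTGCCGC and TTTCGCGC. The cell cycle homology region, an element through which G2/M genes are held silent outside late cycle, was searched as TTTGAA and TTTAAA. The binding letters of the factor NF-Y were searched as CCAAT. A gene counted when any of its windows held the letters, so genes with several windows had more chances of a match. E2F letters were in 15 of 23 G1/S genes (65.2%), 1 of 17 G2/M genes (5.9%, CDK1) and 1090 of the 27305 genes with a window (4.0%). The homology region letters were in 13 of 17 G2/M genes (76.5%), 5 of 23 G1/S genes (21.7%) and 27.9% of all genes with a window. CCAAT was frequent in both, in 14 of 17 G2/M genes (82.4%) and 17 of 23 G1/S genes (73.9%), against 39.7% of all genes with a window. A match is a description of the letters, not a bound site. Stretches of 6 promoters are printed with the searched letters in capitals. E2F2, PCNA and MCM2 are examples of G1/S genes that fell with TAM at 24 h in siNEG cells. CCNB2, KIF20A and MKI67 are examples of G2/M genes that were higher at 24 h than at 4 h with EtOH. Each printed window was picked because it holds E2F letters (G1/S) or homology region letters (G2/M). Other genes with such changes lack them: MCM10 had no E2F letters, and BUB1 and MYBL2 had no homology region letters. In MCM2 the pair of E2F matches overlap each other, on opposite strands, and in MKI67 the last homology match overlaps a reversed CCAAT. Positions are chr1:23531256-23531287 (minus strand) for E2F2, chr20:5126631-5126786 (minus) for PCNA, chr3:127598401-127598435 (plus) for MCM2, chr15:59104896-59105134 (plus) for CCNB2, chr5:138179006-138179088 (plus) for KIF20A and chr10:128126431-128126533 (minus) for MKI67.
E2F2: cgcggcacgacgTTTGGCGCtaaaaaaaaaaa
PCNA: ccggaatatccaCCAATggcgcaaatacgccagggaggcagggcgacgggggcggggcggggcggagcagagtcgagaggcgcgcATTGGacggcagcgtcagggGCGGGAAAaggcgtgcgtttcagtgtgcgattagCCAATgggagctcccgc
MCM2: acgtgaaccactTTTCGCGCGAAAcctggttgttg
CCNB2: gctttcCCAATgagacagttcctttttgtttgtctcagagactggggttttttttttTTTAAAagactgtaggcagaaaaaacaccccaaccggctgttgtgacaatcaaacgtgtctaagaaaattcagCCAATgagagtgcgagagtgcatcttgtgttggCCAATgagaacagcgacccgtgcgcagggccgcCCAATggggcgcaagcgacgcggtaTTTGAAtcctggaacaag
KIF20A: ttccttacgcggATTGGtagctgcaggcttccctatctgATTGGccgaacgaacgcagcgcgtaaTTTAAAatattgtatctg
MKI67: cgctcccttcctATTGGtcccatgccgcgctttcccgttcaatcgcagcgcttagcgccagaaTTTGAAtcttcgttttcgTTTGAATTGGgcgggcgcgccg

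The arrays were close in quality. Median signal ran between 73.5 and 85.3 units, 44.6% to 46.9% of probe sets were above 100 units, and the ratio of 3' to 5' signal was 1.21 to 1.44 for ACTB (1.21 on both siSTAT3 TAM 24 h arrays) and 0.910 to 1.03 for GAPDH. The deposited signals have the same trimmed mean on every array, so each value is relative to the rest of its array. The mean absolute log2 difference between arrays of one group was 0.0813 to 0.158 over the 50 genes, against 0.184 to 0.262 over all probe sets above the low-signal limit. The small number of arrays limits how precise any value is. STAT3 was lower in every siSTAT3 group: 400.1 ± 57.5 units in siSTAT3 and 6119 ± 569.7 units in siNEG cells with TAM at 24 h (SD, n = 2 and 3), and 331 ± 29.3 and 4022 ± 94.5 units with EtOH at 4 h (n = 3 each). The epithelial label fitted its markers, with KRT5 at 13550 to 18820 units and EPCAM at 5458 to 9726 units. Of the 8 markers of other cell types PTPRC (14.9 to 56.1 units), CDH5 (2.59 to 44.7 units), PDGFRB (3.27 to 54.3 units) and CD3E (20.5 to 105 units) were low. The immune marker CD14 gave 361 to 899 units, the endothelial marker PECAM1 145 to 464 units, and the fibroblast markers DCN and COL1A1 1463 to 7270 units and 264 to 939 units; the part of these markers in the results was not tested.

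**Figure D1:**
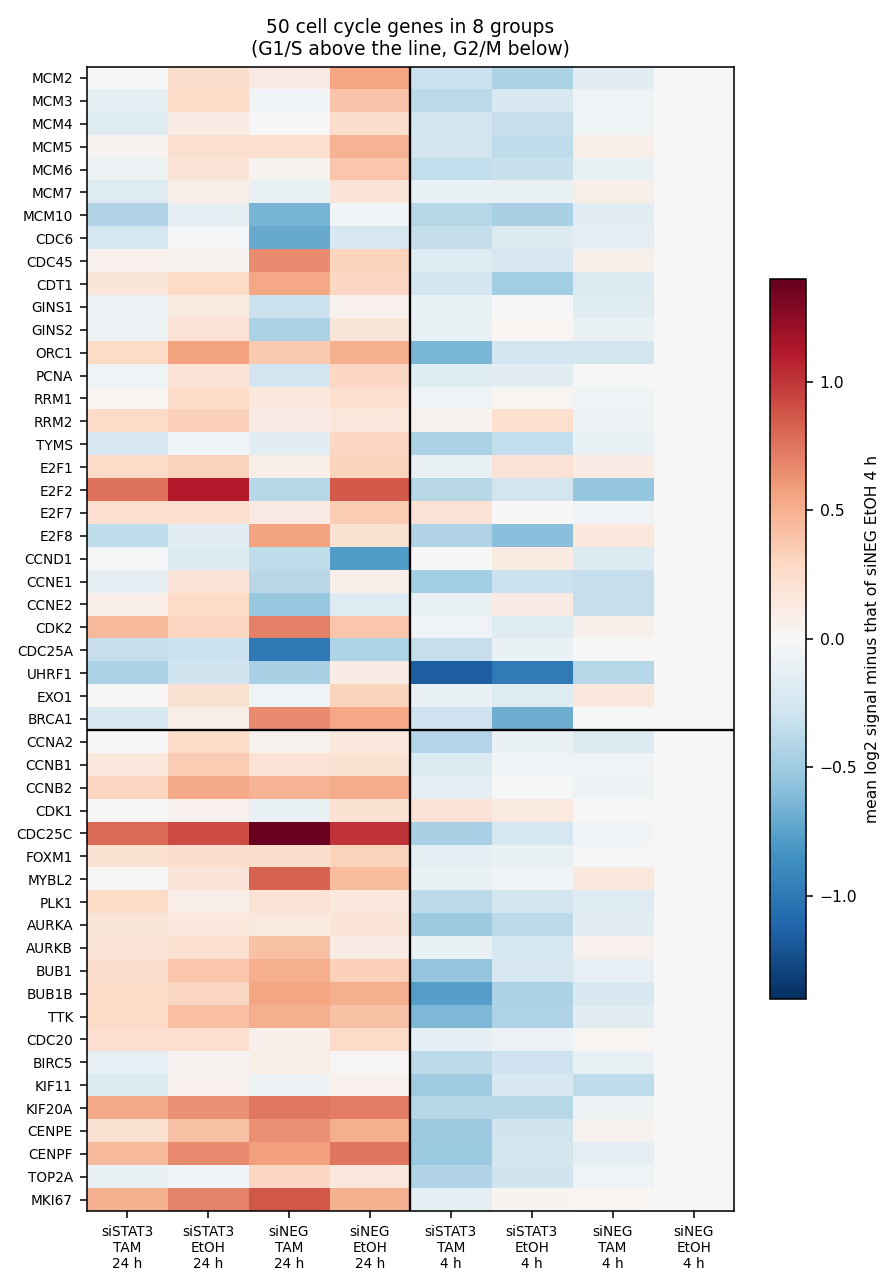
Mean log2 signal of each of the 50 genes in the 8 groups, minus its mean in siNEG cells with EtOH at 4 h (red higher, blue lower). G1/S genes are above the line and G2/M genes below it. The 24 h columns on the left are mostly redder than the 4 h columns. Most, but not all, G1/S genes are paler or bluer in the siNEG TAM 24 h column than in the siNEG EtOH 24 h column.

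After 24 h of TAM in siNEG cells, many genes of DNA replication were lower than with EtOH at 24 h. None of the 21 G2/M genes was called lower. A fall here is set against EtOH at 24 h, not against an earlier time. Relative to siNEG EtOH at 4 h, the mean log2 signal over the G1/S genes was −0.0523 with TAM at 24 h. It was −0.0933 with TAM at 4 h and 0.209 with EtOH at 24 h. TAM at 24 h was not tested against TAM at 4 h. Of the 29 G1/S genes 15 fell and 1 rose, and of the 21 G2/M genes 1 rose and none fell, at an adjusted p under 0.05 in limma. Together that is 15 of 50 genes (30.0%) that fell, where 9.31% of all 19775 genes did, and 2 that rose, where 6.06% did. The median log2 change was −0.34 over the G1/S genes and 0.05 over the G2/M genes, beside −0.04 over all genes. The estimate was below 0 for 23 of the 29 G1/S genes and for 9 of the 21 G2/M genes. For each of the 17 genes called, the TAM arrays and the EtOH arrays did not overlap. The calls came from a test on these same arrays, so this lack of overlap adds no support. The number called was 28 (9 rose and 19 fell) when only probe sets above 100 units were fitted, and 3 when only these 6 arrays were fitted.

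The licensing and helicase genes, whose products load and open the origins, made up most of the fall, with 8 of 13 called and none rising. MCM10, which helps to start the helicase, gave 788.5, 787.7 and 707.4 units with TAM, against 1137, 1213 and 1134 units with EtOH. All TAM arrays were below all EtOH arrays, a log2 change of −0.61 (SE 0.10, adjusted p = 0.000401, limma). GINS2, a subunit of the active helicase, averaged 1031 ± 132 units with TAM and 1566 ± 87.6 units with EtOH (SD, n = 3 each), and fell by 0.61 on the log2 scale (SE 0.11, adjusted p = 0.000936). CDC6, the loader of the MCM ring, averaged 686 ± 22.0 and 963 ± 146 units, a change of −0.48 (SE 0.12, adjusted p = 0.0156). Of the MCM ring itself MCM3, MCM2, MCM6 and MCM4 fell by 0.45, 0.43, 0.34 and 0.25 on the log2 scale, and GINS1 fell by 0.36. On their brightest probe sets MCM5 and MCM7 did not pass the test at −0.26 and −0.28. Their second probe sets, at 355 and 2001 units, were called at −0.41 and −0.32 (adjusted p = 0.0323 and 0.0103, limma). CDC45 and CDT1 had estimates above 0 (0.36 and 0.25) and were not called.

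Among the genes of the replication clamp and of nucleotide supply, PCNA and TYMS fell. Neither ribonucleotide reductase gene was called on its brightest probe set. PCNA, the sliding clamp of the DNA polymerases, gave 6488, 7362 and 7062 units with TAM, against 9949, 10046 and 10622 units with EtOH. The highest TAM array lay well below the lowest EtOH array, and the change was −0.55 (SE 0.08, adjusted p = 0.000101, limma). TYMS, the thymidylate synthase, averaged 7776 ± 674 units with TAM and 10534 ± 348 units with EtOH, a change of −0.44 (SE 0.07, adjusted p = 0.000547). RRM1 and RRM2, the subunits of ribonucleotide reductase, were at −0.09 and −0.05. A second RRM1 probe set, at 1665 units, was called at −0.29 (adjusted p = 0.0130, limma), and that of RRM2 was not called.

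E2F2 had the largest change of the 50 genes. It gave 212.3, 231.6 and 187.3 units with TAM, against 525.9, 500.6 and 484.0 units with EtOH, a 2.40-fold lower level (log2 −1.26, SE 0.10, adjusted p = 1.48e-07, limma). Of the other E2F genes E2F7 had an estimate of −0.24 and E2F1 of −0.23, and the repressor E2F8 one of 0.34; none of the 3 was called. The cyclin genes moved in opposite directions. CDC25A, the phosphatase that activates CDK2, gave 568.8, 671.8 and 423.6 units with TAM, against 895.0, 757.6 and 769.8 units with EtOH (log2 −0.56, SE 0.15, adjusted p = 0.0188). CCNE2, an E-type cyclin, averaged 933 ± 82.7 units with TAM and 1188 ± 81.2 units with EtOH (−0.35, SE 0.10, adjusted p = 0.0288). CCND1, the D-type cyclin that relays growth signals, rose: it gave 2796, 2987 and 2968 units with TAM, against 2122, 1978 and 2446 units with EtOH (0.42, SE 0.10, adjusted p = 0.00838). Of the remaining G1/S genes UHRF1, which keeps DNA methylation through replication, gave 3865, 3745 and 3549 units with TAM, against 5465, 5497 and 5450 units with EtOH, and fell by 0.56 on the log2 scale (SE 0.10, adjusted p = 0.00129). The nuclease EXO1 fell by 0.37 (SE 0.10, adjusted p = 0.0277), and BRCA1 was at 0.13, not called. The calls of CDC6, CCND1, CCNE2, CDC25A, EXO1 and MCM4 were each lost when 1 array was left out, and the other 11 were kept in every such fit; the call of CCND1 was lost without siNEG EtOH 24 h replicate 2 (adjusted p = 0.0518).

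Among the G2/M genes the proliferation marker MKI67 alone passed the test with TAM at 24 h. It gave 3333, 3551 and 3543 units with TAM, against 2575, 2675 and 2807 units with EtOH, and the arrays did not overlap (log2 0.37, SE 0.08, adjusted p = 0.00467, limma). The other G2/M estimates above 0.3 belonged to regulators. CDC25C, the phosphatase that activates CDK1, gave 1398, 1399 and 1654 units with TAM, against 1099, 1110 and 1213 units with EtOH (0.38, SE 0.13, adjusted p = 0.0738). MYBL2 gave 1562, 1324 and 1541 units, against 1110, 1323 and 985.8 units with EtOH, so that the lowest TAM array lay barely above the highest EtOH array (0.38, SE 0.12, adjusted p = 0.0534). The kinase AURKB gave 1085, 1103 and 1051 units, against 840.5, 846.3 and 927.5 units with EtOH (0.31, SE 0.10, adjusted p = 0.0503). None of these 3 was called. CDK1 itself had the lowest G2/M estimate, −0.32 (adjusted p = 0.0578), but its other bright probe sets, at 5617 and 4099 units, had the opposite sign (0.14 and 0.17, not called).

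**Figure D2:**
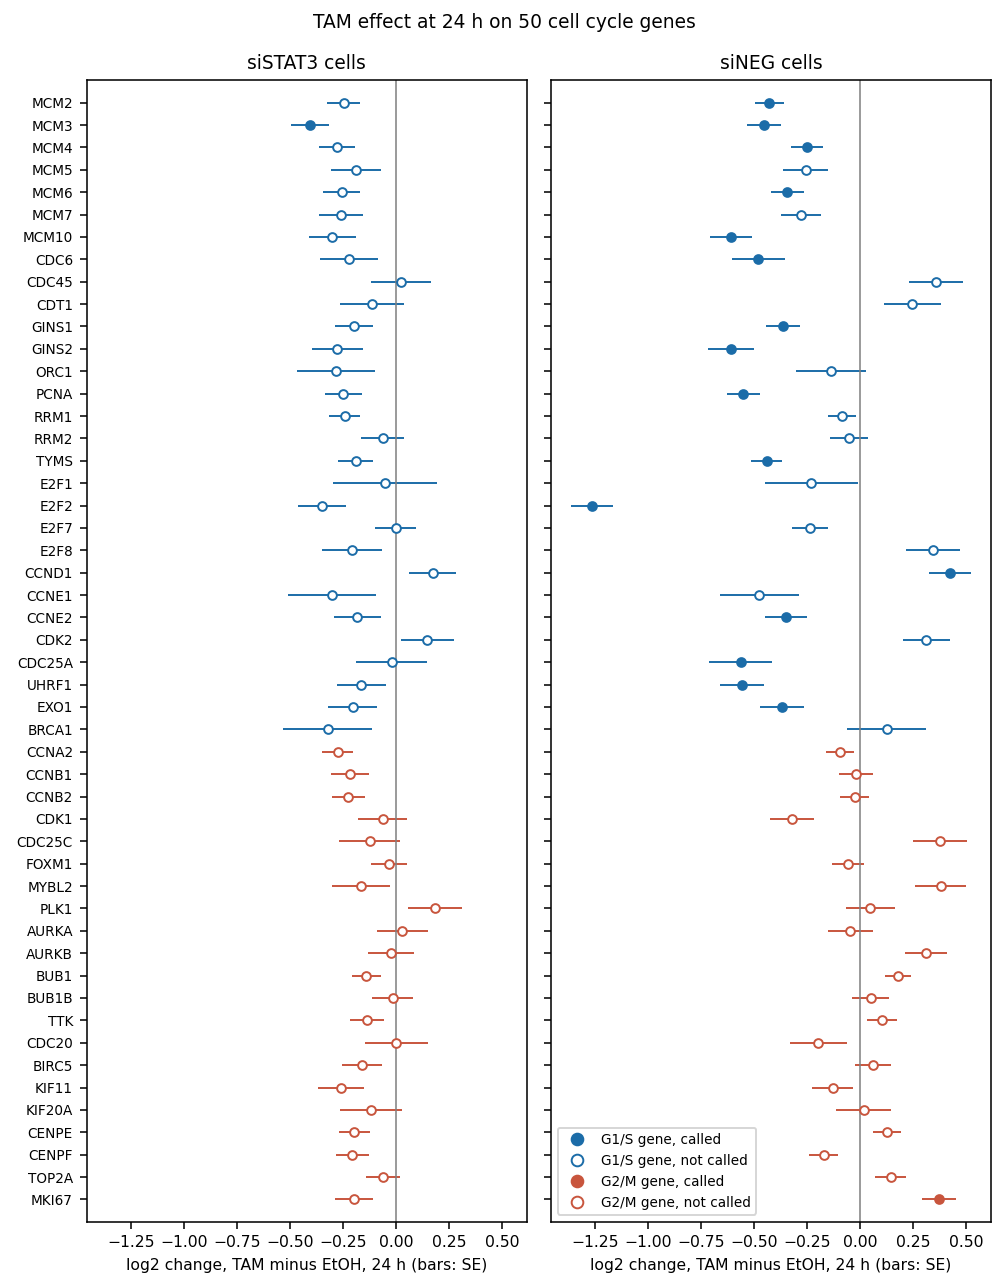
TAM minus EtOH at 24 h for each of the 50 genes as log2 change (points) with its standard error (bars), in siSTAT3 cells (left, 2 TAM and 3 EtOH arrays) and siNEG cells (right, 3 and 3 arrays); filled points passed an adjusted p of 0.05. In siNEG cells 15 G1/S genes lie filled below 0, whereas in siSTAT3 cells MCM3 is the only filled point.

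At 4 h of TAM in siNEG cells E2F2 was the only one of the 50 genes called. It gave 195.1, 183.8 and 192.2 units with TAM, against 264.3, 285.4 and 281.5 units with EtOH (log2 −0.54, SE 0.10, adjusted p = 0.00562, limma). That is 1 gene that fell, where 1.58% of all genes did, and none that rose, where 1.67% did. At an unadjusted p under 0.05, 8 of the 50 had lower and 0 had higher levels. The median over the 50 genes was −0.07, beside −0.06 over all genes.

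Whether the TAM change itself grew with time was tested as an interaction on the siNEG arrays (the change at 24 h minus the change at 4 h). It was called for 3 of the 50 genes: 2 were negative, where 2.62% of all genes were, and 1 was positive, where 2.97% were. E2F2 differed by −0.72 (SE 0.14, adjusted p = 0.00639, limma). PCNA differed by −0.55 (SE 0.11, adjusted p = 0.00749): at 4 h its TAM arrays gave 8486, 8183 and 8381 units and its EtOH arrays 8430, 8173 and 8491 units, which overlap. CCND1 differed by 0.62 (SE 0.14, adjusted p = 0.0173). It was higher with TAM at 24 h, by 0.42. At 4 h CCND1 was lower with TAM, at 3216, 3224 and 3327 units against 3793, 3737 and 3660 units with EtOH (not called at 4 h). The call of CCND1 was lost without siNEG EtOH 24 h replicate 2 (0.55, adjusted p = 0.0533), and the other 2 were kept in every fit without 1 array.

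**Figure D3:**
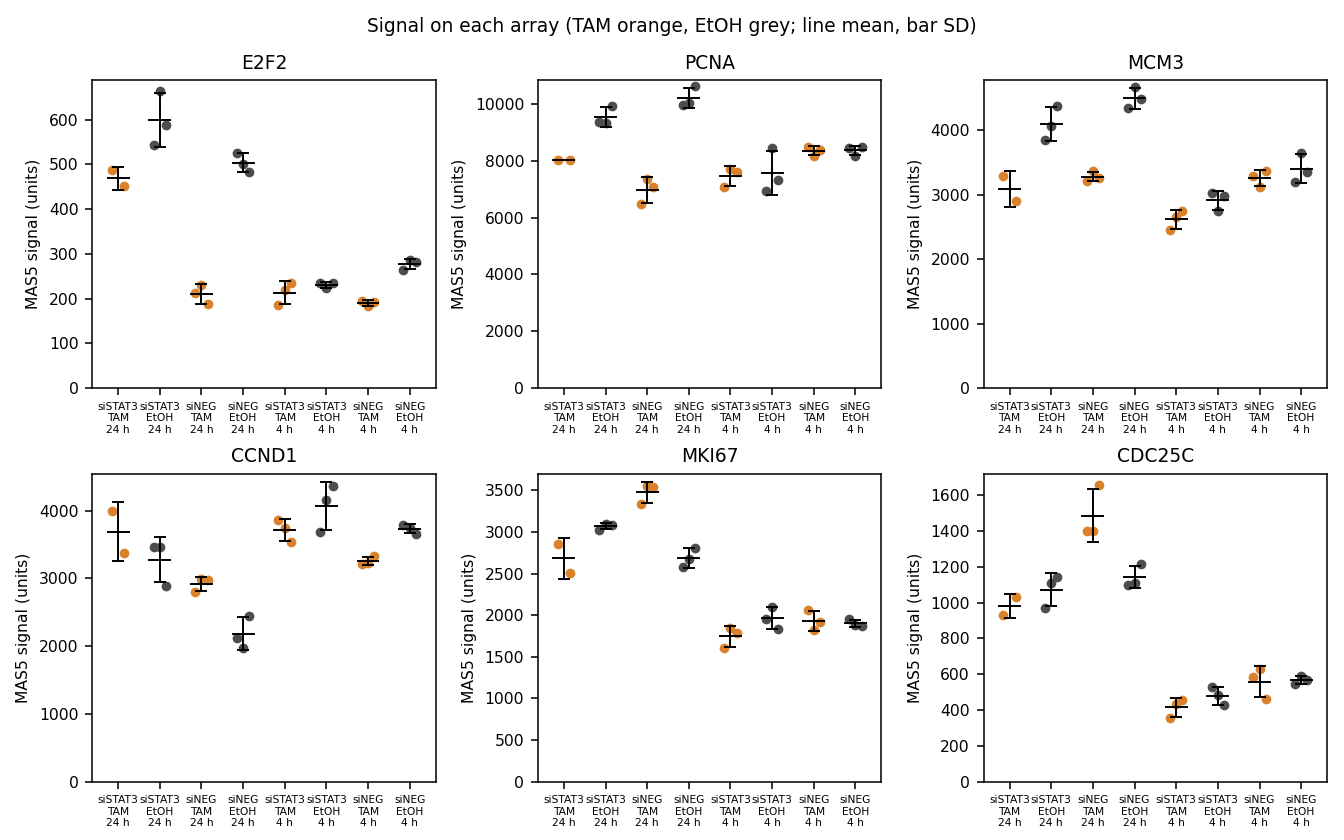
MAS5 signal (units, linear axis) of E2F2, PCNA, MCM3, CCND1, MKI67 and CDC25C on every array (dots; TAM orange, EtOH grey), with the group mean (line) and SD (bar). For E2F2 the siNEG TAM 24 h arrays (187.3 to 231.6 units) lie below the siSTAT3 TAM 24 h arrays (450.9 and 487.0 units).

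In siSTAT3 cells MCM3, a part of the replicative helicase, was the only one of the 50 genes called after 24 h of TAM. It gave 3292 and 2896 units with TAM, against 3843, 4065 and 4371 units with EtOH (log2 −0.40, SE 0.09, adjusted p = 0.0268, limma). For comparison, MCM3 in siNEG cells gave 3218, 3362 and 3264 units with TAM, against 4336, 4663 and 4480 units with EtOH. In the siSTAT3 cells 1 gene thus fell, where 0.748% of all genes did, and none rose, where 2% did. The call was lost without siSTAT3 TAM 24 h replicate 3 (−0.31, adjusted p = 0.362), without siSTAT3 EtOH 24 h replicate 2 (−0.41, adjusted p = 0.0744) and without siSTAT3 EtOH 24 h replicate 3 (−0.36, adjusted p = 0.112). At an unadjusted p under 0.05, 19 genes were lower and 0 higher. The estimates were small and mostly negative in both phases, with 44 of 50 below 0 and medians of −0.21 over the G1/S genes and −0.14 over the G2/M genes, beside −0.01 over all genes. PCNA, for example, gave 8022 and 8033 units with TAM, against 9361, 9314 and 9933 units with EtOH (−0.25, adjusted p = 0.215), and CCNA2, the cyclin of S and G2, was at −0.27 (adjusted p = 0.0769).

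A gene that passes in one siRNA arm and misses in the other is not shown to differ between them, so the difference was tested directly as the TAM change in siSTAT3 cells minus that in siNEG cells. At 24 h it was called for 2 of the 50 genes, 1 positive, where 3.42% of all genes were, and 1 negative, where 2.49% were. At an unadjusted p under 0.05 the counts were 5 and 8. E2F2 gave 487.0 and 450.9 units in siSTAT3 cells with TAM and 543.7, 664.0 and 588.7 units in siSTAT3 cells with EtOH, a change of −0.35 (adjusted p = 0.164) beside the −1.26 in siNEG cells. The difference was 0.91 (SE 0.15, adjusted p = 0.00129, limma) and was called in every fit without 1 array. MKI67 gave 2855 and 2509 units in siSTAT3 cells with TAM, against 3027, 3096 and 3077 units with EtOH, so it was lower with TAM there and higher with TAM in siNEG cells. Its difference was −0.57 (SE 0.12, adjusted p = 0.00995), and without siSTAT3 TAM 24 h replicate 3 it was −0.48 (adjusted p = 0.0865). For the other 48 genes, the licensing genes and PCNA included, a difference in the 24 h TAM change between the siRNA arms was not called.

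At 4 h of TAM in siSTAT3 cells 2 G2/M genes fell, where 0.288% of all genes did, and none rose, where 0.531% did. CCNA2 gave 3147, 3245 and 3280 units with TAM, against 3932, 3997 and 4124 units with EtOH (log2 −0.32, SE 0.07, adjusted p = 0.0366, limma). BUB1, a kinase of the spindle checkpoint, gave 1403, 1363 and 1419 units, against 1644, 1747 and 1791 units with EtOH (−0.31, SE 0.06, adjusted p = 0.0308). Both calls were lost whichever of the 6 arrays was left out, with 0 genes called each time. The difference between the siRNA arms at 4 h was called for none of the 50 genes, where 0.192% of all genes were positive and 0.329% negative; at an unadjusted p under 0.05 it was positive for 3 and negative for 2.

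Genes of both phases were lower with the STAT3 siRNA at 4 h. These comparisons share their siNEG or siSTAT3 arrays with the TAM comparisons above. With EtOH at 4 h, 13 of the 50 genes were lower in siSTAT3 than in siNEG cells, where 2.41% of all genes were. None was higher on its brightest probe set, where 1.88% of all genes were. A second RRM2 probe set, at 7751 units, was called higher, by 0.40 (adjusted p = 0.00732, limma). A second AURKA probe set, at 3277 units, was called lower, by 0.35 (adjusted p = 0.0106). The median over the 50 genes was −0.24, beside −0.04 over all genes, and 24 were lower and 1 higher at an unadjusted p under 0.05. UHRF1 changed most: it gave 2408, 2551 and 2800 units in siSTAT3 cells, against 4875, 5849 and 4677 units in siNEG cells (log2 −0.98, SE 0.10, adjusted p = 2.67e-05, limma). Among the licensing genes MCM10, MCM2, MCM4 and MCM6 fell, with MCM2 at 1769, 1741 and 1814 units, against 2342, 2540 and 2341 units in siNEG cells (−0.44, SE 0.07, adjusted p = 0.00114). The repressor E2F8 averaged 305 ± 67.6 units in siSTAT3 and 451 ± 8.37 units in siNEG cells (SD, n = 3 each; −0.58, adjusted p = 0.0159), and TYMS fell by 0.34 on the log2 scale (adjusted p = 0.0150). No cyclin or kinase gene of G1/S passed.

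Among the G2/M genes 3 of the 8 mitotic kinase and checkpoint genes and 3 of the 6 genes of motors, kinetochore and chromosome proteins fell at 4 h. TTK, the kinase that starts the checkpoint signal, gave 1145, 1239 and 1238 units in siSTAT3 cells, against 1709, 1628 and 1547 units in siNEG cells (log2 −0.43, SE 0.07, adjusted p = 0.00194, limma). BUB1B, which holds back chromosome separation, gave 2107, 2252 and 2094 units, against 2859, 2739 and 3181 units in siNEG cells (−0.44, SE 0.09, adjusted p = 0.00740). BUB1 fell by 0.24, the kinetochore motor CENPE by 0.28, TOP2A, the topoisomerase that untangles chromosomes, by 0.28 and the kinetochore protein CENPF by 0.26 on the log2 scale (adjusted p = 0.0443, 0.0257, 0.0482 and 0.0472). None of the G2/M cyclins or transcription factors passed. The count rested on all 6 arrays: leaving out siNEG replicate 1, 2 or 3 left 6 calls each time, and leaving out siSTAT3 replicate 1, 2 or 3 left 4, 7 and 5. The calls of UHRF1, MCM2, TTK and BUB1B were kept in all 6 of these fits. With only these 6 arrays in the fit, 0 genes were called, and the same count came from such a fit in the other 3 comparisons of siSTAT3 with siNEG cells.

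With TAM at 4 h, on separate arrays, 10 of the 50 genes were lower in siSTAT3 cells, where 4.61% of all genes were, and none was higher, where 4.69% were; at an unadjusted p under 0.05 the counts were 23 and 2. Of the 13 genes that fell with EtOH 9 fell here too, which is 9 of these 10: TYMS, E2F8, UHRF1, BUB1, BUB1B, TTK, CENPE, CENPF and TOP2A. UHRF1 gave 2248, 2182 and 2476 units in siSTAT3 cells, against 4041, 3343 and 4352 units in siNEG cells (log2 −0.76, SE 0.10, adjusted p = 0.000119, limma). CENPE gave 974.8, 967.2 and 933.0 units, against 1473, 1382 and 1378 units in siNEG cells (−0.56, SE 0.07, adjusted p = 2.81e-05). BUB1B and TTK fell by 0.56 and 0.48, E2F8 by 0.56 and MCM3 by 0.32 on the log2 scale (adjusted p = 0.000428, 0.000283, 0.0110 and 0.0231). The calls of E2F8 and MCM3 were lost in some of the fits without 1 array, and the other 8 were kept.

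With EtOH at 24 h, few of the 50 genes differed between the siRNAs. In siSTAT3 cells 2 were lower, where 1.46% of all genes were, and 2 were higher, where 1.4% were. CCND1 was higher, at 3466, 3465 and 2888 units in siSTAT3 cells, against 2122, 1978 and 2446 units in siNEG cells (log2 0.59, SE 0.10, adjusted p = 0.00337, limma), and this call was kept in every fit without 1 array. CCNE2 was higher too, at 1746, 1603 and 1528 units, against 1272, 1181 and 1110 units in siNEG cells (0.45, SE 0.10, adjusted p = 0.0225). TYMS and MCM2 were lower, by log2 values of −0.33 and −0.31 (adjusted p = 0.0293 and 0.0259). The count fell to 2 without siNEG replicate 1 or 2 or siSTAT3 replicate 1 or 3, and to 1 without siNEG replicate 3 or siSTAT3 replicate 2.

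With TAM at 24 h 4 of the 50 genes were higher in siSTAT3 than in siNEG cells (8%), below the 9.72% of all genes that were, and 9 were lower (18%), where 6.77% of all genes were. The 4 higher genes were G1/S genes, and the lower ones were 3 G1/S and 6 G2/M genes. E2F2 gave 487.0 and 450.9 units in siSTAT3 cells, against 212.3, 231.6 and 187.3 units in siNEG cells (log2 1.16, SE 0.11, adjusted p = 1.3e-06, limma). CCNE2 gave 1462 and 1397 units, against 872.9, 1028 and 899.9 units in siNEG cells (0.62, SE 0.11, adjusted p = 0.000882). CDC25A, at 814.3 and 929.4 units, and CDC6, at 970.0 and 918.9 units, were higher by 0.67 and 0.46 on the log2 scale (adjusted p = 0.0114 and 0.0357). E2F8 was lower, at 400.3 and 308.8 units, against 652.7, 652.0 and 688.3 units in siNEG cells (−0.92, SE 0.14, adjusted p = 0.000228). BRCA1, a repair gene, was lower by a log2 value of −0.90 (adjusted p = 0.00775), but its siSTAT3 arrays lay far apart at 1027 and 632.3 units, and CDC45, a part of the active helicase, was lower by −0.61 (adjusted p = 0.00824).

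The 6 G2/M genes that were lower in siSTAT3 cells with TAM at 24 h were MYBL2, CDC25C, CENPE, TOP2A, MKI67 and BUB1, and no G2/M gene was higher. MYBL2 gave 744.5 and 939.8 units, against 1562, 1324 and 1541 units in siNEG cells (log2 −0.82, SE 0.14, adjusted p = 0.000434, limma). CDC25C gave 932.8 and 1029 units, against 1398, 1399 and 1654 units in siNEG cells (−0.59, SE 0.14, adjusted p = 0.0100). CENPE, TOP2A and MKI67 fell by 0.43, 0.39 and 0.38 on the log2 scale (adjusted p = 0.000621, 0.0035 and 0.00908), and BUB1 by 0.27 (adjusted p = 0.0161). The median over the G2/M genes was −0.20, beside 0.03 over all genes. Without siSTAT3 TAM 24 h replicate 3 the count over the 50 genes was 8 in place of 13, and the calls of BRCA1 (−0.55, adjusted p = 0.218), CDC25A, CDC6, MKI67 and BUB1 were lost. Without replicate 2 those of CDC25C, CDC45 and CDC6 were lost, and that of CDC6 was lost without any of the siNEG TAM 24 h arrays too. The calls of E2F2, CCNE2, E2F8, MYBL2, CENPE and TOP2A were kept in every fit without 1 array.

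**Figure D4:**
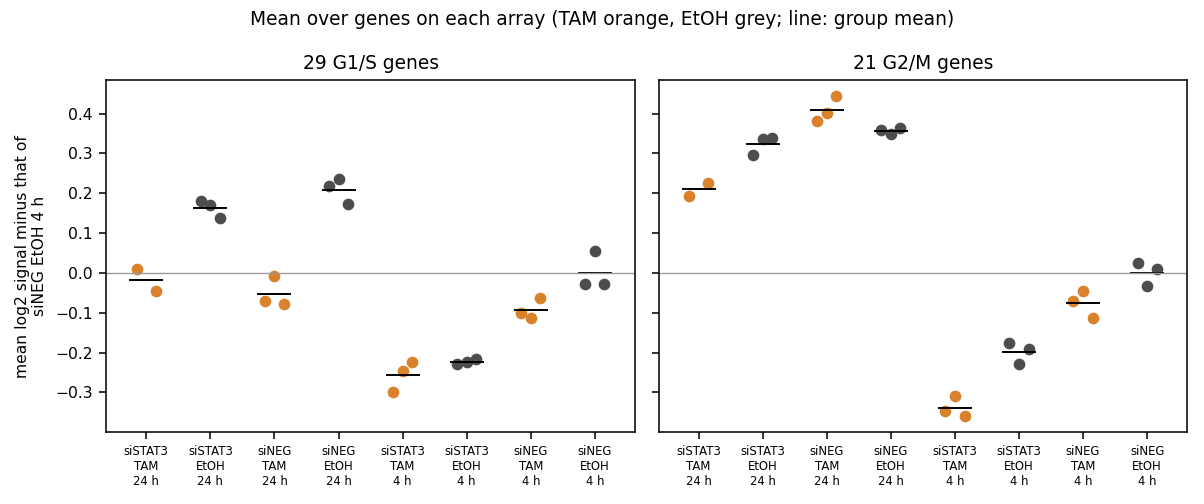
Mean log2 signal over the 29 G1/S genes and over the 21 G2/M genes on each of the 23 arrays, relative to the mean of siNEG EtOH 4 h. For G1/S genes the siNEG TAM 24 h arrays (−0.0778 to −0.00912) lie below the siNEG EtOH 24 h arrays (0.174 to 0.234), whereas for G2/M genes the same TAM arrays (0.382 to 0.443) lie above theirs (0.349 to 0.362).

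Averaged per array, the G1/S and G2/M genes lay on opposite sides of their EtOH arrays in siNEG cells with TAM at 24 h. Relative to siNEG EtOH at 4 h the G1/S average was −0.0523 with TAM and 0.209 with EtOH at 24 h, while the G2/M average was 0.409 with TAM and 0.357 with EtOH. In siSTAT3 cells both averages were lower with TAM than with EtOH at 24 h, at −0.0175 and 0.163 for the G1/S genes and 0.210 and 0.324 for the G2/M genes. At 4 h the siSTAT3 arrays lay lowest, at −0.257 with TAM and −0.223 with EtOH for the G1/S genes and −0.338 with TAM and −0.199 with EtOH for the G2/M genes, below siNEG TAM at −0.0933 and −0.0769. These averages describe the arrays and carry no test.

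More of these genes were called between 24 and 4 h of culture with the solvent alone than in any other of the 14 comparisons. The change between 4 and 24 h with TAM was not among them and was not tested. With TAM the G2/M array average was 0.409 at 24 h and −0.0769 at 4 h in siNEG cells. In siSTAT3 cells it was 0.210 and −0.338. The G1/S average with TAM was −0.0523 and −0.0933 in siNEG and −0.0175 and −0.257 in siSTAT3 cells. In siNEG cells with EtOH 21 of the 50 genes were higher at 24 h than at 4 h, where 6.82% of all genes were, and 1 was lower, where 5.52% were. The median over the 50 genes was 0.29, beside 0.02 over all genes. CDC25C gave 1099, 1110 and 1213 units at 24 h, against 543.1, 588.8 and 566.0 units at 4 h (log2 1.01, SE 0.13, adjusted p = 7.16e-05, limma). E2F2 gave 525.9, 500.6 and 484.0 units, against 264.3, 285.4 and 281.5 units at 4 h (0.86, SE 0.10, adjusted p = 3.04e-05). CENPF gave 6189, 6036 and 6179 units, against 3736, 3615 and 3630 units at 4 h (0.75, SE 0.07, adjusted p = 2.68e-06). All arrays at 24 h were above all arrays at 4 h for these 3 genes. KIF20A, a motor needed for the last step of division, rose by 0.72, MCM2 by 0.55, the mitotic cyclin CCNB2 by 0.52, and MCM5 by 0.49 (adjusted p = 0.00175, 5.77e-05, 0.000126 and 0.00644). Both G2/M transcription factors rose, MYBL2 by 0.45 and FOXM1 by 0.31 (adjusted p = 0.0273 and 0.0166), but these calls were lost in 5 and 3 of the fits without 1 array. Those of CDK2, E2F7, PCNA, RRM1 and TYMS were also lost in at least 1 such fit, and the other 15 of the 22 were kept. CCND1 was the gene that fell, at 2122, 1978 and 2446 units, against 3793, 3737 and 3660 units at 4 h (−0.78, SE 0.10, adjusted p = 7.16e-05). A second CDC25A probe set, at 564 units, was called lower too, by 0.75 (adjusted p = 0.00174, limma). Its brightest probe set was at −0.44, not called. Second probe sets of MCM4, MCM7, RRM2 and CDT1 were called higher.

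In siSTAT3 cells with EtOH 33 of the 50 genes were higher at 24 h, where 8.14% of all genes were, and none was lower, where 5.28% were; 1 was lower at an unadjusted p under 0.05. These were 17 of the 29 G1/S genes and 16 of the 21 G2/M genes, and the median over the 50 was 0.41, beside 0.06 over all genes. E2F2 gave 543.7, 664.0 and 588.7 units, against 234.9, 223.8 and 234.4 units at 4 h (log2 1.37, SE 0.10, adjusted p = 1.9e-07, limma). CDC25C gave 966.6, 1107 and 1140 units, against 530.0, 481.3 and 429.6 units at 4 h (1.16, SE 0.13, adjusted p = 1.29e-05). KIF20A gave 3669, 3696 and 3428 units, against 1867, 1588 and 1804 units at 4 h (1.04, SE 0.13, adjusted p = 4.97e-05). The groups did not overlap for these genes. ORC1, a subunit of the complex that marks origins, rose by 0.83, CDT1, which loads the MCM ring with CDC6, by 0.77, BRCA1 by 0.78 and UHRF1 by 0.70 (adjusted p = 0.00300, 0.00116, 0.0117 and 0.000226). TTK and BUB1B rose by 0.85 and 0.73 (adjusted p = 7.02e-07 and 2.71e-05). The call of BRCA1 was among 10 of the 33 that were lost in at least 1 fit without 1 array, with those of BIRC5, CDK2, E2F8, EXO1, MCM10, PCNA, RRM1, TOP2A and TYMS. CCND1 had an estimate of −0.32 (adjusted p = 0.0534).

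The siNEG and siSTAT3 time changes come from separate arrays, and 19 genes rose in both, which is 19 of the 21 in siNEG and 19 of the 33 in siSTAT3 cells. The difference between them, tested as an interaction, was called for none of the 50 genes; over all genes it was positive for 0.00506% and negative for 0.0101%. At an unadjusted p under 0.05 it was positive for 13 of the 50 and negative for 0, and the estimate was above 0 for 44. The largest was that of UHRF1, 0.60 (SE 0.15, adjusted p = 0.344), followed in size by E2F2 at 0.51 (adjusted p = 0.473). The longer list of rises in siSTAT3 cells is therefore not a tested difference, and it shares its 4 h and 24 h arrays with the siRNA comparisons above.

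**Figure D5:**
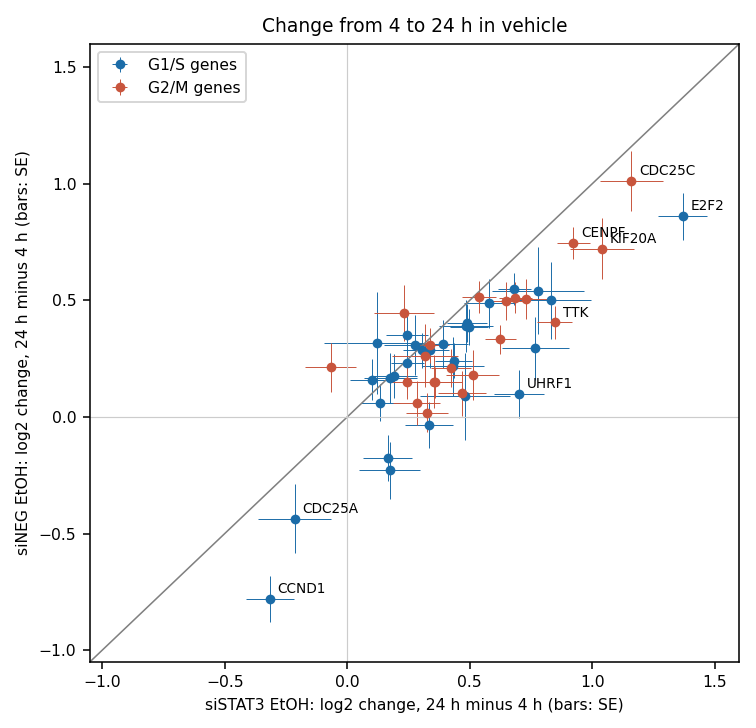
Log2 change between 24 h and 4 h with EtOH (24 h minus 4 h) in siSTAT3 cells (horizontal) and siNEG cells (vertical), 1 point per gene, with the diagonal of equal change. Of the 50 genes 44 have the higher value in siSTAT3 cells, E2F2 is far right at 1.37 and CCND1 is lowest at −0.78 in siNEG cells.

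Further genes of the same pathway were examined in 4 lists. The CDK inhibitors and pocket proteins (9 of 10 measured) are brakes on entry into the cycle. With TAM at 24 h in siNEG cells 2 of the 9 rose (22.2%, where 6.06% of all genes did) and 2 fell (22.2%, where 9.31% did): CDKN1C averaged 526 ± 57.9 units with TAM and 1309 ± 159 units with EtOH (log2 −1.31), CDKN2D 282 ± 10.8 and 120 ± 21.3 units (1.25), and CDKN1A, the p21 inhibitor, 1977 ± 66.6 and 1383 ± 149 units (0.52; SD, n = 3 each; adjusted p = 6.18e-06, 0.0002 and 0.0109, limma). CDKN1A was also higher in siSTAT3 than in siNEG cells at 4 h, at 3267 ± 313 and 2062 ± 147 units with EtOH (0.66, adjusted p = 0.00627) and by 0.69 with TAM, and at 24 h with TAM by 0.46, a call that was lost without siSTAT3 TAM 24 h replicate 3 (0.28, adjusted p = 0.457), without any of the siNEG TAM 24 h arrays (0.44 to 0.49) and with the replicate number as a block (0.44). It was lower at 24 h than at 4 h with EtOH, by −0.81 in siSTAT3 and −0.58 in siNEG cells. CDKN1C was higher in siSTAT3 than in siNEG cells with TAM, at 1485 ± 140 and 526 ± 57.9 units at 24 h (n = 2 and 3) and by 1.23 on the log2 scale at 4 h.

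In the list of other G1 cyclins, kinases and E2F partners (11 measured), 3 fell with TAM at 24 h in siNEG cells (27.3%, where 9.31% of all genes did) and none rose. CCND2, a second D-type cyclin, gave 1747, 1958 and 1600 units with TAM, against 3801, 3794 and 3627 units with EtOH, so it moved opposite to CCND1 (log2 −1.09, SE 0.08, adjusted p = 5.59e-08, limma). In siSTAT3 cells CCND2 gave 5796 and 6704 units with TAM, against 5505, 5504 and 5812 units with EtOH at 24 h. Its siSTAT3 arrays were above its siNEG arrays at every matched treatment and time, by 1.82 with TAM and 0.58 with EtOH at 24 h and by 0.80 with TAM and 0.49 with EtOH at 4 h, all called. CCND3 and TFDP1 fell by 0.32 and 0.30 with TAM at 24 h in siNEG cells, and CCND3 was higher by 0.57 in siSTAT3 than in siNEG cells with TAM at 24 h. MYC, among other genes of the list, was lower at 24 h than at 4 h in siSTAT3 cells with EtOH, by −0.40. In siNEG cells with EtOH E2F3 gave 1272, 1195 and 1282 units at 24 h, against 1859, 2081 and 1791 units at 4 h. TFDP2 went the other way there, at 1160, 1092 and 1117 units, against 723.3, 690.6 and 772.6 units at 4 h.

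The other replication genes (28 of 30 measured) included 9 that fell with TAM at 24 h in siNEG cells (32.1%, where 9.31% of all genes did) and none that rose, and the median was −0.27. The largest falls were those of TIPIN, which protects stalled forks, at 852 ± 32.6 units with TAM and 1335 ± 43.6 units with EtOH (−0.65), the DNA ligase LIG1 (−0.58) and the chromatin assembly factor CHAF1A (−0.50). Of the other mitotic genes (35 measured) 4 rose (11.4%, where 6.06% of all genes did) and 2 fell (5.71%, where 9.31% did), with a median of 0.03; the motor KIF14 averaged 6586 ± 132 units with TAM and 4469 ± 451 units with EtOH (0.56, adjusted p = 9.81e-05, limma). In siSTAT3 cells TAM at 24 h gave no call among the 83 measured genes of the 4 lists (1 higher and 25 lower at an unadjusted p under 0.05). With TAM at 24 h 6 of the 35 other mitotic genes were lower in siSTAT3 than in siNEG cells (17.1%, where 6.77% of all genes were) and none was higher, led by KIF14 at 3910 ± 294 and 6586 ± 132 units (−0.75; SD, n = 2 and 3), ECT2 (−0.43) and DLGAP5 (−0.40). Of the other replication genes 3 of 28 were lower (10.7%, near that share; POLD3 −0.51, RFC4 −0.36) and TIPIN was higher (0.39). With TAM at 4 h 8 of the 35 other mitotic genes and 4 of the 28 other replication genes were lower in siSTAT3 cells (22.9% and 14.3%, where 4.61% of all genes were). With EtOH at 4 h 2 genes of each list were lower (5.71% and 7.14%, where 2.41% of all genes were: KIF15 −0.37, KIF14 −0.34, RPA2 −0.58, CDCA7 −0.47). Between 4 and 24 h with EtOH 23 of the 35 other mitotic genes and 15 of the 28 other replication genes rose in siSTAT3 cells (65.7% and 53.6%, where 8.14% of all genes did), and 14 and 12 in siNEG cells (40% and 42.9%, where 6.82% did), led by NDC80 (1.05) and PRIM1 (0.81) in siSTAT3 and HMMR (0.76) and PRIM1 (0.72) in siNEG cells; none fell.

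How far other probe sets of a gene carried the same change was looked at for the 32 genes that had several. Of the 17 genes called with TAM at 24 h in siNEG cells 10 had 16 further probe sets at 100 units or more, of which 13 had the same sign, 6 were called in the same direction and none was called in the opposite one. For siSTAT3 against siNEG with EtOH at 4 h, 12 of 12 had the same sign and 0 were called. For 24 h against 4 h with EtOH in siNEG cells, 10 of 13 had the same sign and 3 were called. In siSTAT3 cells it was 25 of 27, with 10 called. For CENPF the probe sets at 1126 and 183 units gave 0.10 and −0.02 in siNEG and 0.42 and 0.07 in siSTAT3 cells, not called. E2F2 had no further probe set that bright: its other 2 averaged 23.3 and 18.3 units, with log2 changes of 0.11 and −2.29 that were not called. With the mean of all 3 the change with TAM at 24 h was −1.15 (adjusted p = 0.0499) and the difference between the siRNA arms 1.12 (adjusted p = 0.349). For MKI67 the second probe set, at 2229 units, gave 0.26 with TAM at 24 h (adjusted p = 0.0957, limma) and −0.54 for the difference between the siRNA arms (adjusted p = 0.0446), while the dimmer ones at 615 and 382 units gave −0.13 and −0.19 with TAM, not called. For CCND1 the second probe set gave 0.26 (adjusted p = 0.350), and for CDC25A it gave −0.47 (adjusted p = 0.0337). On their brightest probe sets 42 of the 50 genes were called in at least 1 of the 14 comparisons. MCM7, RRM2, E2F1, CCNE1, CDK1, PLK1, CDC20 and KIF11 were called in none on that probe set. The second MCM7 probe set, at 2001 units, was called between 24 and 4 h with EtOH, at 0.26 in siSTAT3 and 0.28 in siNEG cells. It was also called with TAM at 24 h in siNEG cells. For RRM2 the second probe set, at 7751 units, was called at 0.35 between 24 and 4 h in siNEG cells with EtOH. The other 2 bright probe sets of CDK1 were called between 24 and 4 h with EtOH, at 0.25 and 0.26 in siSTAT3 and 0.24 and 0.26 in siNEG cells.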

How the data were processed

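RNA of 23 samples was hybridised to Affymetrix Human Genome U133 Plus 2.0 arrays. The authors deposited 1 intensity per probe set and array, background corrected, scaled and summarised with MAS5 (named in the submitters' processing notes; version not given), on a linear scale called signal units here. Of 54675 probe sets 41097 carry 1 gene symbol in the platform annotation, 1801 several and 11777 none; only the first kind names genes. Of the probe sets of each of 19775 genes, the brightest by mean log2 signal over all arrays stood for the gene.

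The log2 of each signal, with no offset, entered a limma fit (version 3.58.1, R 4.3.3) in which the 8 groups of the 23 arrays each had a mean. Moderated tests had 15 residual degrees of freedom plus 1.27 from the prior, and p-values were adjusted by Benjamini-Hochberg within a comparison, across the 54675 probe sets. A gene is called, and said to rise or fall, at an adjusted p under 0.05. SE is the standard error of a log2 value and ± the SD of signals. The script was tested on simulated data. Since each array is scaled to the same level, a change in total RNA per cell would not show.

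Full statistics went to at most 3 called genes per comparison and role with the largest log2 change, per-array values to genes with a called siRNA by TAM interaction and to the largest 24 h TAM change in siNEG cells of each role; per-array values of further called genes were added after their values were seen. The members, lists and tests were chosen with earlier results of these data known. Alternatives were quantile normalization, 16 units added before log2, a filter at 100 units, a fit on the compared groups only, a replicate block, the limits of the methods (unadjusted p under 1e-04 and a log2 change above 0.5), the mean of all probe sets of a gene, a mean-variance trend, and leaving out each array in turn.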

Additional observations from a re-analysis of the deposited data

Results flagged for a closer look

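These genes had a TAM change that differed between siRNAs at 24 h, or between times in siNEG cells, by the interaction test of limma. The differences below are log2 values with their adjusted p, for the members first and then for genes of the 4 further lists.

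The TAM change at 24 h in siSTAT3 minus siNEG cells was 0.91 for E2F2 (0.00129) and −0.57 for MKI67 (0.00995). In the further lists it was 1.24 for CCND2 (6.3e-06), 1.17 for CDKN1C (0.0034), −1.09 for CDKN2D (0.0415) and 0.68 for LIG1 (0.0227). The mitotic genes KIF14, DLGAP5, ECT2 and NEK2 had −0.73, −0.56, −0.65 and −0.39 (0.00128, 0.00457, 0.0284 and 0.0448). The values of CDKN2D, LIG1, ECT2, NEK2 and MKI67 lost the call in at least 1 fit without 1 array.

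The TAM change at 24 h minus that at 4 h in siNEG cells was −0.55 for PCNA (0.00749), −0.72 for E2F2 (0.00639) and 0.62 for CCND1 (0.0173). In the further lists it was 1.31 for CDKN2D (0.00924), −0.59 for CCND2 (0.00498), −0.45 for RFC5 (0.0373), −0.66 for TIPIN (0.00101), 0.83 for KIF14 (0.00025), 0.60 for HMMR (0.00636) and −0.45 for CENPN (0.0486). The values of CCND1, RFC5 and CENPN lost the call in at least 1 fit without 1 array.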

How the results depend on the processing

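Counts of called genes are out of 50 and set against those of the report: 17 and 1 for TAM in siNEG cells at 24 and 4 h, 1 and 2 for TAM in siSTAT3 cells at 24 and 4 h, 4 and 13 for siSTAT3 against siNEG with EtOH at 24 and 4 h, 13 and 10 with TAM at 24 and 4 h, 33 and 22 for 24 against 4 h in siSTAT3 and siNEG cells, 2 for the siRNA by TAM interaction at 24 h and 3 for the time by TAM interaction. No count moved past 1.5 times with 16 units added before log2. Quantile normalization gave 2 for TAM in siSTAT3 cells at 24 h and 2 for TAM in siNEG cells at 4 h. Fitting the probe sets above 100 units gave 28 and 5 for TAM in siNEG cells at 24 and 4 h (at 24 h 9 rose and 19 fell), 5 and 5 for TAM in siSTAT3 cells, 18 for siSTAT3 against siNEG with TAM at 4 h, and 5 and 11 for the siRNA by TAM interaction at 24 h and the time by TAM interaction. The mean-variance trend gave 27 and 5, 5 and 4, 18, and 5 and 11 for the same comparisons. A fit on the compared groups alone, which has fewer samples, left 3 and 0 for TAM in siNEG cells at 24 and 4 h, 0 and 0 in siSTAT3 cells, 0 for all 4 comparisons of siSTAT3 with siNEG, 12 and 2 for time in siSTAT3 and siNEG cells, and 1 for the siRNA by TAM interaction at 24 h. The limits of the methods left 5 for TAM in siNEG cells at 24 h, 0 and 0 in siSTAT3 cells, 1 and 1 for siSTAT3 against siNEG with EtOH at 24 and 4 h, 4 and 3 with TAM at 24 and 4 h, 14 and 9 for time in siSTAT3 and siNEG cells, 1 for the siRNA by TAM interaction at 24 h and 0 for the time by TAM interaction. The mean of all probe sets of a gene gave 3 and 1 for TAM in siSTAT3 cells at 24 and 4 h and 1 for the siRNA by TAM interaction at 24 h.

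Under that mean some single estimates turned round: E2F2 with TAM at 4 h in siNEG cells (0.082), BUB1 in siSTAT3 against siNEG cells with TAM at 24 h (0.033) and 4 h (0.099), AURKB (−0.069) for 24 against 4 h in siSTAT3 cells, and CDK2 (−0.14) and BUB1 (−0.19) in siNEG cells. Of 1708 values of called genes under all alternatives 1305 kept direction and call, 397 lost the call and 6 turned round; the cause was not tested.

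Leaving out 1 array gave 13 to 18 and 1 to 2 called genes for TAM in siNEG cells at 24 and 4 h, 0 to 1 and 0 in siSTAT3 cells, 1 to 2 and 4 to 7 for siSTAT3 against siNEG with EtOH at 24 and 4 h, 8 to 15 and 8 to 11 with TAM, 25 to 31 and 16 to 19 for time in siSTAT3 and siNEG cells, 1 to 3 for the siRNA by TAM interaction at 24 h, and 2 to 5 for the time by TAM interaction. Of 121 calls 72 were kept in every such fit. The replicate block moved the count of TAM in siSTAT3 cells at 4 h to 0 and no other past 1.5 times (17 for TAM in siNEG cells at 24 h, 11 for siSTAT3 against siNEG with EtOH at 4 h). The replicate numbers showed little pairing of the samples, but this check cannot exclude it. Arrays of the same number had a median correlation of deviations of 0.0276 over 77 pairs, 11 of them above 0.1, against −0.0172 for other numbers.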
